A study of Homo sapiens with 6 samples.

Results

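The clustered protocadherin locus on chromosome 5 was examined by reduced representation bisulfite sequencing (RRBS) in DNMT3B knockout and control M07e cells. Its members were the 51 protein-coding RefSeq genes whose symbols start with PCDHA, PCDHB, PCDHGA, PCDHGB or PCDHGC and a digit, and the 47 regions of the authors' deposited table, of 35130 in all, that fall in a window around these genes on hg38, all of them within chr5:140786140-141512975, from the start of PCDHA1 to the end of the gamma cluster. PCDHAC1 and PCDHAC2 lie in the same window but outside that naming rule. M07e cells derive from an acute megakaryoblastic leukemia and are grown with GM-CSF, and the series title names leukemia driven by the CBFA2T3-GLIS2 fusion. The control group held 3 libraries of genotype WT and the knockout group 3 libraries of cells with a CRISPR disruption of DNMT3B, an enzyme that adds methyl groups to unmethylated CpGs. The labels do not say whether the knockout is 1 clone or a pool, or whether replicates came from separate cultures. RNA was not measured in these libraries, so neither the markers of the cell line nor the loss of DNMT3B could be checked.

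Clustered protocadherins are cell adhesion proteins that give each neuron a surface identity. In the alpha and gamma clusters each gene has its own promoter and large variable exon, which is spliced to constant exons shared by the whole cluster, whereas the beta genes have no shared constant exons. Most of the promoters carry a conserved element with the core letters CGCT, which lies in a binding site of the architectural protein CTCF, and DNA methylation of these promoters and exons is known to go with silence of the gene. In mice Dnmt3b is known to methylate these promoters in the early embryo. The genes are not known for a role in megakaryocytes.

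The core element is shown here because 1 measured region lies on it. RefSeq promoter windows (GRCh38.p14, 250 bases before to 50 after a start) were found for 45 of the 51 genes. PCDHA3, PCDHA13, PCDHB6, PCDHB11, PCDHGA12 and PCDHGC5 were not matched, and PCDHGB2 had no window at its annotated start, which left 44 windows. The letters CGCT were searched on both strands and occurred in 43 of 44 member windows (97.7%), against 70.0% of all 35116 windows of the RefSeq table. On the coding strand and 100 to 30 bases before the start, they occurred in 41 of 44 (93.2%), against 21.6% of all windows. The longer CGCTG, which contains the core, stood there in 34 of 44 (77.3%), against 9.33% of all windows. TGGCGCT, which also contains the core, stood there in 11 of 14 beta, 2 of 19 gamma and 0 of 11 alpha promoters, against 0.589% of all windows. The motifs and the 100 to 30 base stretch were chosen after the sequences were seen. The member shares were therefore partly set by that choice and are no test of enrichment. The stretches below show CGCTG in capitals with 15 bases on either side, 5′ to 3′ on the plus strand, for 1 alpha gene, 1 beta gene, the gamma genes with a called region in the variable exon that had a window, and PCDHGB6.
PCDHA2: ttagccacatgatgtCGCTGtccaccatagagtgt
PCDHB3: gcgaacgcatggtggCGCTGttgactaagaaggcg
PCDHGA3: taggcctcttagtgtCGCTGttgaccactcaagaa
PCDHGB4: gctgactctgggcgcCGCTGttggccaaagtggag
PCDHGB6: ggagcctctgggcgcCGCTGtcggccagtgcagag
PCDHGA10: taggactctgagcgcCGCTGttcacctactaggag
PCDHGC3: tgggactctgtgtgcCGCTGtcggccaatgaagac

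**Figure D1:**
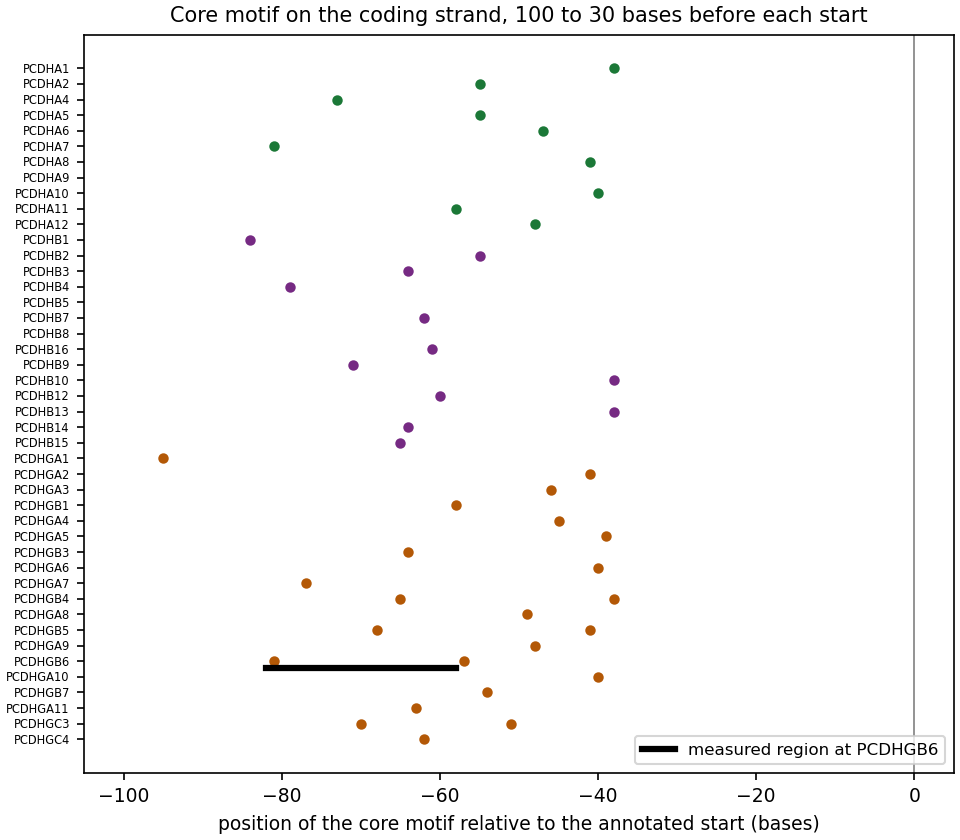
Position of the core motif on the coding strand, in bases relative to the annotated start (x axis), for the 44 member genes with a RefSeq promoter window (y axis), coloured by cluster as green for alpha, purple for beta and orange for gamma. A dot marks each match between 100 and 30 bases before the start, 41 of 44 genes have at least 1, and the black bar is the measured region at PCDHGB6, from 82 to 58 bases before its start.

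The only RRBS region that lay wholly before a member's start within its 250-base promoter was at PCDHGB6, an adhesion protein gene of the gamma B group. The 250 bases before its start (chr5:141407771-141408020, plus strand) follow, with the CpGs inside the measured region in capitals.
PCDHGB6: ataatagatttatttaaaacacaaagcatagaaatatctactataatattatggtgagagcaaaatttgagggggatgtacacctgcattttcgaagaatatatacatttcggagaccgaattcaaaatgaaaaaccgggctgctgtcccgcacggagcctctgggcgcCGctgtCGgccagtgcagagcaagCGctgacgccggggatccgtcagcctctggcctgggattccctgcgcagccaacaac
The 3 marked CpGs include those of both copies of the core, which begin 81 and 57 bases before the start. The deposited positions fit a count from 0, so a CpG was marked up to 1 base past the printed end of the region. In the authors' deposited table the mean over this region (chr5:141407939-141407963) was 11.6% in control cells and 3.73% in knockout cells over 5 sites (q = 0.475), so it was low in both groups and not called. At PCDHGB7 a region from 11 bases before to 281 bases after the start (chr5:141417666-141417958) was at 8.76% in control cells and 5.72% in knockout cells (q = 1.00). Outside the naming rule, a region across the start of PCDHAC2 (95 bases before to 25 after) was at 0% in control cells and 28.3% in knockout cells (q = 1.00). No member promoter with a measurement over its core or its start was therefore called, but only these few were measured. The 250 bases before member starts held a median of 5 CpGs, against 11 over all RefSeq windows.

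Methylation levels are percentages, 1 mean per group and region, and differences are knockout minus control in percentage points. All levels, differences and q-values below are those of the authors' deposited table. The table has no values of single libraries and no coverage, so neither depth nor replicate error can be given for any value. The points that entered the authors' tests are not stated, so their q-values cannot be read as tests over the 3 libraries of a group. One mean column is named for the wild type and was read as the control. The other has a name found in none of the labels and was read as the knockout, the only other genotype. Every direction given here depends on this. Regions with an authors' q under 0.01 and a difference of at least 25 points in either direction are termed called. The number of sites of a region counts cytosines and not CpGs. Over the 2511 regions that lie inside RefSeq promoter windows, the site number never exceeded the number of CpG cytosines on both strands, equalled it in 1425 (56.8%), and was above the number of CpGs in 1906 (75.9%).

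Over the locus, 6 of 47 regions were called (12.8%), against 6.74% of all regions of the table. Of these, 3 were higher in the knockout (4.57% of all regions were called higher) and 3 lower (2.17% called lower). Of the 6, 5 lay in variable exons of gamma genes, at PCDHGA3, PCDHGB4, PCDHGA10, PCDHGA12 and PCDHGC3, and the other in the beta pseudogene PCDHB17P. None of the 10 alpha regions was called. The median region of the locus was at 18.8% in control cells and 32.2% in knockout cells, against 7.59% and 30.9% over the table, and the median difference was 16.8 points against 17.4. Without the 13 regions that were at exactly 0 in one group and between 25% and 33.33% in the other, the locus median was -0.0818 points while all regions of the table, treated alike, had a median of 4.15. With Benjamini-Hochberg adjustment of the deposited Kolmogorov-Smirnov p over the whole table, 4 of the 47 regions were called, against 1446 of all 35130 (4.12%). The 47 regions held 321 sites, with a median of 6 sites over 79 bases. Because the gene spans of a cluster overlap, 20 of the 51 members, all of them gamma genes, have a called region in their span, while 5 have one in their own variable exon.

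**Figure D2:**
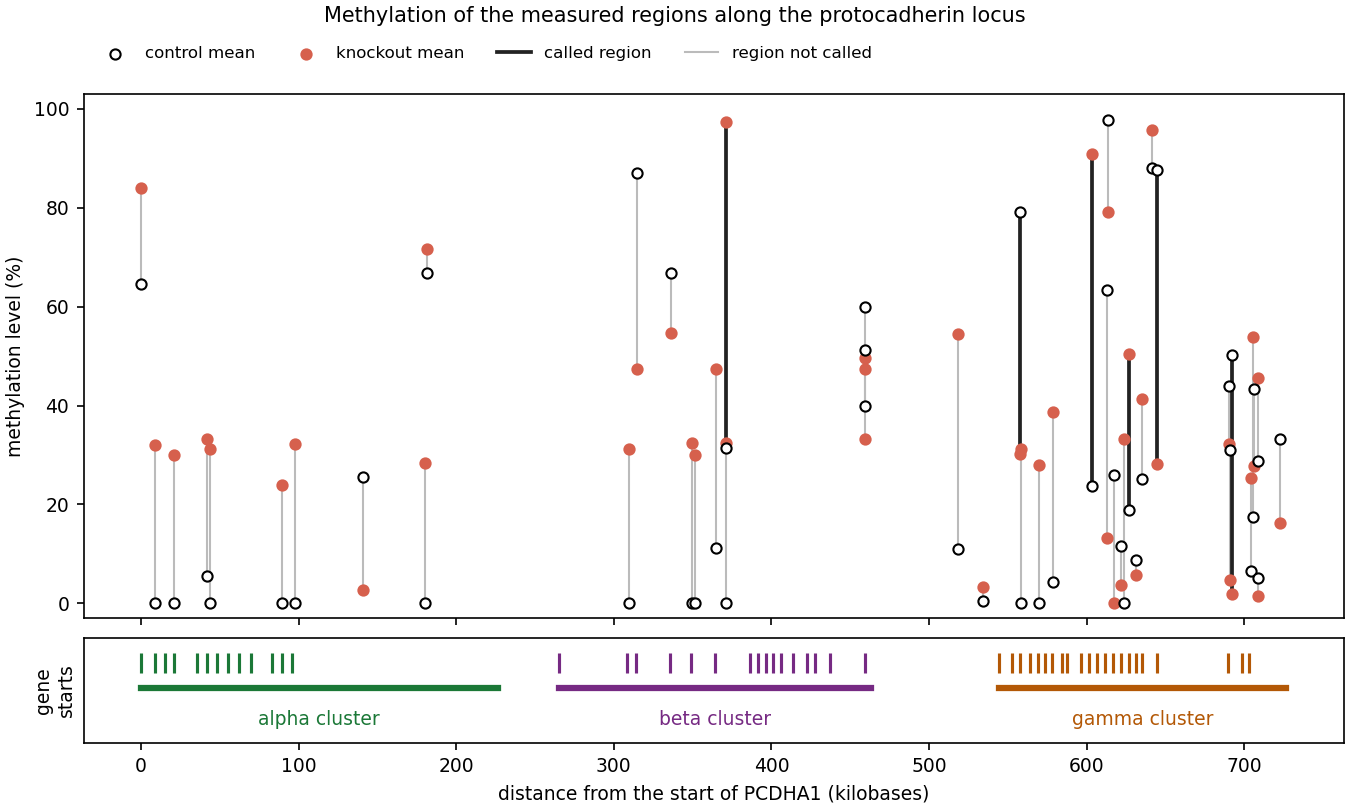
Mean methylation level in percent (y axis) of the 47 regions against distance from the start of PCDHA1 in kilobases (x axis), with open circles for the control, red circles for the knockout and a line joining the 2 means of a region, black where called. The lower strip shows the starts of the 51 member genes and the extent of each cluster, and the 6 called regions sit in the beta cluster (1) and the gamma cluster (5).

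In the alpha cluster (chr5:140786140-141012347, 13 member genes), 9 of 10 regions had a higher mean in the knockout and none was called. The median level was 0% in control cells and 31.6% in knockout cells. Of the 10 regions, 6 were at exactly 0 in the control, against 26.1% of the regions of the table, and the authors' Kolmogorov-Smirnov p of all 6 was 1. Variable exons of 6 genes held 7 regions, and each of the 7 was higher in the knockout by 19.3 to 32.2 points. PCDHA2, 400 bases from its start, was at 0% in control cells and 32.0% in knockout cells. PCDHA4, 156 bases from its start, was at 0% and 30%, and PCDHA12 at 0% and 24%. PCDHA6 had 2 regions, at 5.56% and 33.33% near its start and at 0% and 31.3% at 1982 bases from it. PCDHA13 was at 0% and 32.2%. The knockout means of these 6 regions thus lay between 24% and 33.33%. A group mean cannot show whether all 3 knockout libraries or only 1 of them had methylation there. The higher means are therefore no evidence of a gain shared by the knockout libraries.

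PCDHA1, at the 5′ end of the cluster, stood apart from the other alpha exons, with 64.6% in control cells and 83.9% in knockout cells (q = 0.475). Farther on, the exons of the C-type genes PCDHAC1 and PCDHAC2, which are outside the naming rule but inside the spans of all 13 alpha members, had the other high and the only lower region. PCDHAC1, 692 bases from its start, was at 25.5% in control cells and 2.67% in knockout cells over 5 sites (q = 0.00154), which missed the call by its difference of -22.8 points. PCDHAC2, 1188 bases from its start, was at 66.8% and 71.7%. No region lay in the variable exons of the other 7 alpha members.

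In the beta cluster (chr5:141051374-141249365, 16 member genes), 11 regions were measured, 7 higher and 4 lower in the knockout, and none of the 9 inside member genes was called. The single called region was in PCDHB17P, a transcribed pseudogene, where 5 sites went from 31.5% in control cells to 97.3% in knockout cells (chr5:141157092-141157109, q = 0.00151). A neighbouring region 517 bases away in the same pseudogene was at 0% and 32.5%. Among the genes, PCDHB3 had the largest loss, from 87.0% to 47.4% over 7 sites and 523 bases from its start, but its q of 0.0250 missed the threshold. PCDHB4 was at 66.9% and 54.7%, and PCDHB6 at 11.1% and 47.3% (q = 0.208). PCDHB2 was at 0% and 31.2%, and both regions of PCDHB5 were at 0% in the control, with 32.5% and 30.1% in the knockout, the latter over 13 sites.

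PCDHB15 had 3 adjoining regions 81 to 426 bases from its start, at 40% and 49.7%, 51.2% and 47.3%, and 60.0% and 33.33% in control and knockout. The last of them is a single site whose deposited difference of -7.71 points is not the difference of its 2 means, the 1 region of the 47 where these were more than 0.01 points apart. No region lay in the other 10 beta genes: PCDHB1, PCDHB7, PCDHB8, PCDHB9, PCDHB10, PCDHB11, PCDHB12, PCDHB13, PCDHB14 and PCDHB16. Most beta genes were therefore unmeasured. The median difference of the cluster was 30.1 points, and -3.92 points without the 4 regions at 0 in the control. These 4 all lay at or above the median, so leaving them out could not raise it.

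**Figure D3:**
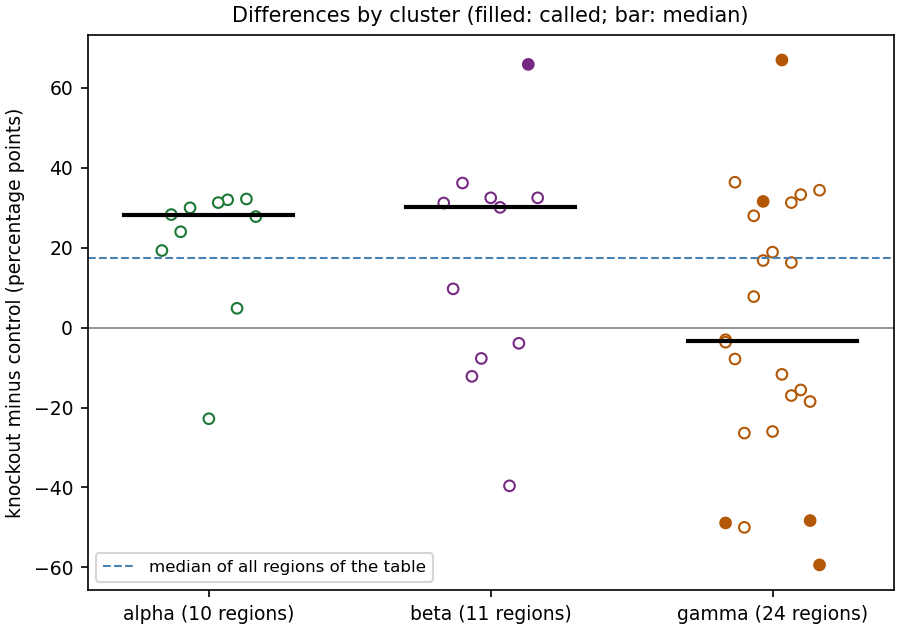
Difference in methylation, knockout minus control in percentage points (y axis), for each region of the alpha, beta and gamma clusters (x axis), with filled points for called regions, black bars for the cluster medians of 28.1, 30.1 and -3.34 points, and a dashed line for the median of all regions of the table, 17.4. Of the 10 alpha regions 8 lie between 19.3 and 32.2 points and the others at 4.84 and -22.8, while gamma regions range from -59.4 to 67.0.

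In the gamma cluster (chr5:141330514-141512975, 22 member genes), 5 of 24 regions were called (20.8%, against 6.74% of the table), 2 higher and 3 lower in the knockout. Here 11 regions were higher and 13 lower, and the median difference was -3.34 points. Of the 24 regions, 3 (12.5%) were at 0 in the control with 25% to 33.33% in the knockout, against 21.0% of all regions. The alpha cluster had 5 of 10 such regions and the beta cluster 4 of 11. All 5 called regions lay among the 17 regions of variable exons. Whether the clusters differ was not tested, since the table has no values of single libraries.

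The gamma A genes held 3 of the called regions. At PCDHGA12, the last gene of this group, 16 sites 435 bases from the start went from 87.6% in control cells to 28.2% in knockout cells (chr5:141430942-141431002, q = 1.85e-06). It was the region of the locus with the most sites and the lowest q. At PCDHGA3, 10 sites 297 bases from the start went from 79.1% to 30.3% (chr5:141344126-141344183, q = 0.00533), while the next region of 10 sites, only 27 bases farther on, was at 0% in control cells and 31.3% in knockout cells (q = 1.00). The control levels of these neighbours thus differed by most of the scale, but the knockout levels were alike. At PCDHGA10, 8 sites 331 bases from the start went from 18.8% to 50.4% (chr5:141413318-141413402, q = 3.12e-04).

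The other gamma A exons were not called. PCDHGA4 was at 0% and 28.0%, PCDHGA5 at 4.26% and 38.7%, and PCDHGA11 at 25.1% and 41.4%. PCDHGA9 was the reverse of the common pattern, with 25.99% in control cells and 0% in knockout cells over 7 sites (q = 1.00). The pseudogene PCDHGB8P, between PCDHGA11 and PCDHGA12, was high in both groups at 88.0% and 95.8%.

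Among the gamma B genes, PCDHGB4 had the largest gain of the locus, from 23.8% in control cells to 90.8% in knockout cells over 5 sites, 1559 bases from its start (chr5:141389257-141389274, q = 0.00319). PCDHGB5 had a loss of 50 points, from 63.3% to 13.3% over 5 sites, whose q of 0.0743 missed the threshold. A second region of PCDHGB5, 574 bases farther on, was at 97.7% and 79.2%. PCDHGB6 was at 0% and 33.33% at 1958 bases from its start, while its promoter region with the core element had the lower mean in the knockout, as given above.

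The C-type genes at the 3′ end of the cluster, PCDHGC3, PCDHGC4 and PCDHGC5, had 9 regions between PCDHGC3 and the end of the cluster, of which 6 were lower in the knockout. PCDHGC3 had 3 regions in its variable exon and each had a lower mean in the knockout. The farthest, 2331 bases from the start, went from 50.2% in control cells to 1.85% in knockout cells over 9 sites (chr5:141478297-141478484, q = 1.20e-04). The region at 1014 bases was at 31.0% and 4.63% (q = 0.651), and the region at 339 bases at 44.0% and 32.2% (q = 1.00). No region lay in the variable exon of PCDHGC4. The exon of PCDHGC5 was at 6.48% and 25.4%, and a region of 15 sites 2827 bases from its start at 17.5% and 53.9%, with a q of 0.0150 above the threshold.

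Beyond this, inside the spans of all 22 gamma genes, 4 regions were measured and none was called. Their levels in control and knockout were 43.3% and 27.8%, 28.8% and 45.5%, 5.14% and 1.49%, and 33.2% and 16.2%. The last, 20026 bases past the start of PCDHGC5, had a q of 0.0142. Exon positions were not used here, so a variable exon was taken as the 2500 bases from a start, and these 4 regions could not be assigned to constant exons or introns.

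**Figure D4:**
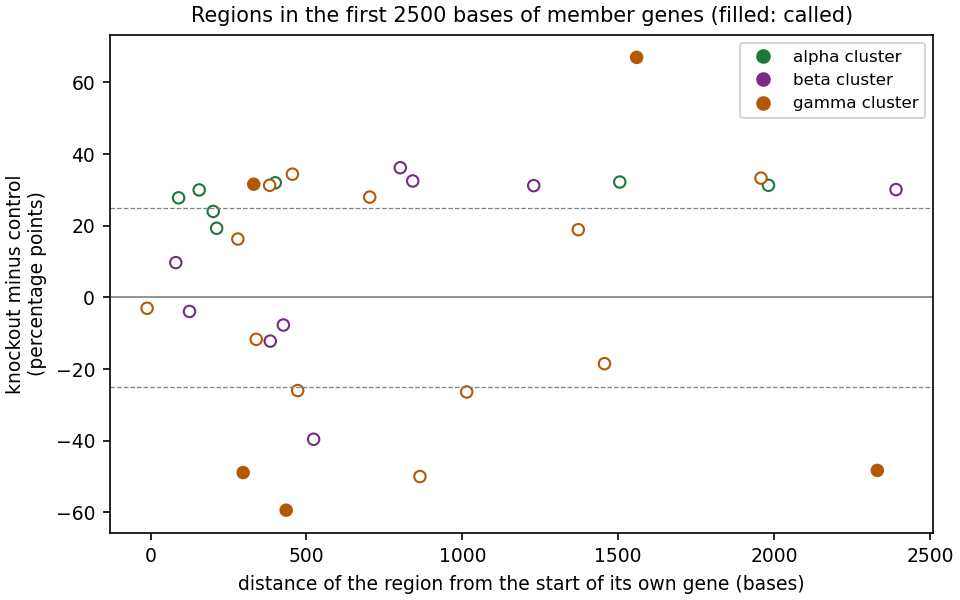
Difference in methylation, knockout minus control in percentage points (y axis), against distance of the region from the start of its own gene in bases (x axis), for the 33 regions in the 2500 bases after member starts, coloured by cluster, filled where called and with dashed lines at 25 points either way. The 5 called regions, all gamma, lie 297 to 2331 bases from the start, on both sides of 0.

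Over the 33 regions placed in variable exons, which belong to 25 of the 51 genes, 20 were higher and 13 lower in the knockout. Of the 33, 22 differed by at least 25 points (66.7%, against 52.0% of all regions). Of these 22, 10 were at exactly 0 in the control with 25% to 33.33% in the knockout, and 1 was the reverse. The first kind made up 30.3% of the 33, against 21.0% of all regions, and the reverse 3.03% against 2.27%. None of those in the exons was called. The higher share of differences of at least 25 points thus rests partly on such regions, and it was not tested. All 7 regions of alpha exons were higher, as were 5 of 9 of beta exons and 8 of 17 of gamma exons. Of the 18 regions that began within 500 bases of the start, 3 were called (16.7%, against 6.74% of all regions). None of the 5 from there to 1000 bases was called, and 2 of the 10 farther away were (20.0%). These counts are too small to show a trend with distance, which was not tested. The 14 regions outside these exons had 1 called (7.14%), the PCDHB17P region.

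The regions were also set beside regions of like control level in the table. The control level is itself a term of the difference, so a region at 0 has no room below it and a high one has much, and the trend across levels is no result. Of the 12 regions above 50% in the control, 9 were lower in the knockout (75.0%, against 69.2% of such regions in the table). Of the 11 between 20% and 50%, 6 were lower (54.5%, against 56.7%), and of the 11 above 0 and up to 20%, 3 were lower (27.3%, against 27.5%). None of the 13 at 0 was called, and none of the 9175 such regions of the table was. The locus held more regions of high control level, 25.5% of its regions being above 50% against 10.9% of the table. Of the regions above 50% in the control, 3 of 12 were called (25%, against 15.2% of such regions in the table), of those between 20% and 50% 2 of 11 (18.2%, against 10.4%), and of those above 0 and up to 20% 1 of 11 (9.09%, against 6.74%). These counts are small and were not tested.

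**Figure D5:**
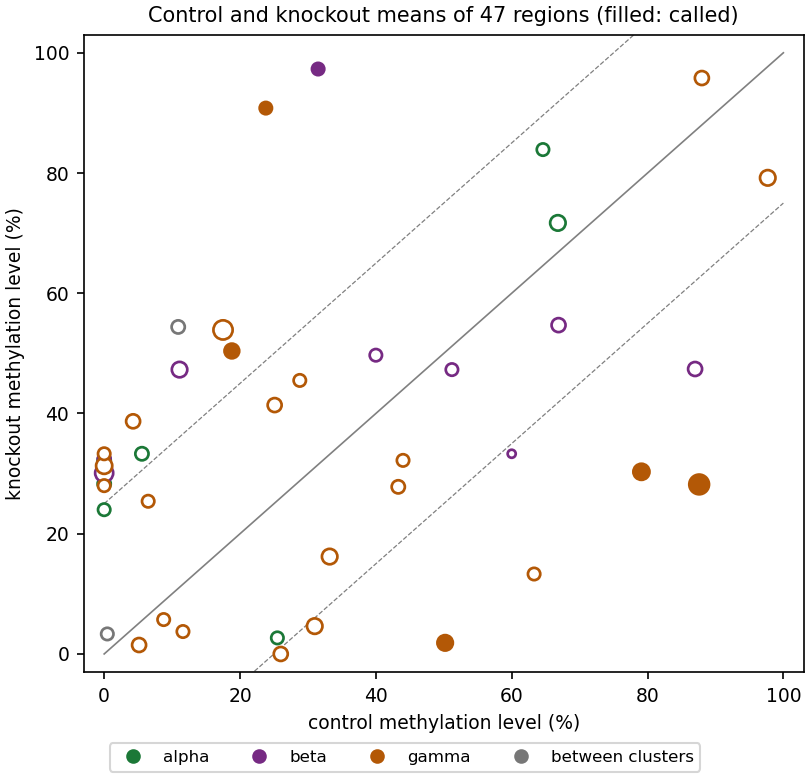
Control (x axis) and knockout (y axis) mean methylation level in percent of the 47 regions, coloured by cluster, with area growing with the number of sites, filled where called, a solid line of equal levels and dashed lines at 25 points. Regions at 0 in the control stack at 24% to 33.33% in the knockout, and the 3 called losses start from 50.2%, 79.1% and 87.6%.

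Genes around and beyond the clusters were also looked at. Between the beta and gamma clusters, a region near SLC25A2, a mitochondrial ornithine carrier gene, was at 10.9% in control cells and 54.4% in knockout cells (q = 0.180). It lay 372 bases past the higher coordinate of the gene, whose strand was not used. A region in TAF7, which encodes a subunit of the general transcription factor TFIID, was at 0.463% and 3.33%. Of 12 non-clustered protocadherin genes, 10 had a region in their span or within 1000 bases of it. These genes lie outside the clusters, PCDH1 and PCDH12 past the gamma cluster on chromosome 5, and have no shared constant exons. Of their 32 regions, 1 was called (3.12%, against 6.74% of all regions). This was PCDH8, where 25 sites went from 40.8% in control cells to 3.40% in knockout cells (chr13:52846543-52846854, q = 1.53e-05). Of 14 regulators of the locus and of chromosome architecture, 12 had regions and none of the 27 was called, against 6.74% of all regions. Among these genes were CTCF, the cohesin subunit gene RAD21, SMCHD1 and DNMT3B itself. Of 10 neighbouring genes, SLC25A2 and TAF7 among them, 6 had regions and none of their 5 distinct regions was called. With so few regions and a share of 6.74% in the table, counts of 0 do not set the regulators or the neighbours apart.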

How the data were processed

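Genomic DNA of 6 libraries (3 control, 3 DNMT3B knockout) was cut with MspI, converted with bisulfite and sequenced, per the labels' protocols. Tools named without roles in the submitters' processing notes are Bismark, HISAT2, methylKit, Trimmomatic and FastQC, with the build hg38. Which program made the region table is not stated there or in the labels. Per the file headers, the authors deposited a mean methylation percent for each group and region, a difference in percentage points, a count of CpG sites, and p-values and a q-value. Depth per library is unknown.

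Regions were placed on RefSeq genes (GRCh38.p14) with Python 3.11.15 and pandas 2.3.3. Starts are printed as deposited plus 1. In all 2511 regions inside RefSeq promoter windows, the C of a CpG lay at the printed start or 1 base after it, and at the printed end or 1 base after it, as positions counted from 0 on both strands would give. No test was run, since the table has only group means. Helper functions were tested on simulated data. Named regions are the called ones, those with at least 15 sites, the 5 largest differences not called and those in member promoters; the others of the locus were added after their values were seen. Motifs and the 100 to 30 base window were chosen after seeing the sequences. Members, lists and thresholds were chosen with earlier results of these data known. Alternatives covered the thresholds, the adjustment, the site number, the window, merging, weighting and the exon length.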

Additional observations from a re-analysis of the deposited data

How the results depend on the processing

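Of 6 called regions, 3 passed a q under 0.001 (PCDHGA10, PCDHGA12 and PCDHGC3), and of the 3 called higher 1 did. Under the other 7 alternatives the count ranged from 4 to 8, with 4 under Benjamini-Hochberg adjustment of the deposited Kolmogorov-Smirnov p over all regions, where PCDHGA3 and PCDHGB4 dropped out, and 8 at a q under 0.05. The median difference of the locus was 16.8 points in the main analysis, 17.8 with at least 5 sites, 16.3 inside member gene spans, 6.23 as a mean weighted by sites and -0.0818 without the regions at 0 in one group and 25% to 33.33% in the other. That of the alpha cluster went from 28.1 to 20.9 weighted and 19.3 without those regions. That of the beta cluster went from 30.1 to 30.6 with at least 5 sites, 17.7 weighted, 9.71 inside member spans and -3.92 without those regions. That of the gamma cluster went from -3.34 to -4.17 weighted and -5.75 without those regions. Those regions were 12 at 0 in the control and 1 at 0 in the knockout, so leaving them out removed more on the higher side. The cause of the other shifts was not tested. Exon lengths of 2000 and 3000 bases gave 31 and 34 regions in place of 33, and 4 and 5 called in place of 5. No paired analysis was possible because the table has only group means, and for the same reason no replicate could be left out. The unknown depth limits every level, above all in regions of few sites.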
